A study of Mus musculus with 2 samples.

Results

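Tight junctions seal neighbouring epithelial cells at their apical side, and 9 genes of these junctions were compared between the diets. They were the claudins Cldn2, Cldn3, Cldn4, Cldn7 and Cldn15, occludin (Ocln), the scaffold ZO-1 (Tjp1), the junctional adhesion molecule JAM-A (F11r) and cingulin (Cgn). They were chosen by name as the tight junction genes typical of intestinal epithelium, and all 16 probesets annotated to them were taken, out of 45101 probesets on the array. All 9 were among the 11687 genes with a usable signal, of 18193 genes read by a probeset of their own. Male C57BL/6J mice, 4 months old at the start as labelled, were kept for 4 weeks on semisynthetic diets of which 20% by weight was fat. The control diet had flaxseed oil, rich in the plant n-3 fatty acid ALA, as its lipid. In the EPA&DHA diet 44% of the lipids were exchanged for a marine concentrate with 6% EPA and 51% DHA. Of 12 mice per diet, RNA of 10 control mice and 11 EPA&DHA mice was pooled, and each pool was hybridized to 1 array. Spread between mice was therefore not measured, and no test or standard error could be had for any value below.

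Claudins are small proteins that cross the membrane and join their counterparts on the next cell, and the mix of claudins sets how tight the contact is and which ions pass between the cells. Claudin-2 and claudin-15 form channels for sodium and other small cations, which in the small intestine return sodium to the lumen for sodium-coupled uptake of nutrients. Claudin-3, claudin-4 and claudin-7 are mainly counted among the sealing members. Occludin and JAM-A sit in the same strands or beside them, ZO-1 ties the strands to actin, and cingulin links ZO-1 to actomyosin.

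The promoters of 4 members are shown because these genes span the range of the results, from the lowest ratio (Cgn) through Cldn3 and Cldn2 to a ratio of 1 (Cldn4). Cldn4 and Cldn3 are also neighbours on chromosome 5, with no other gene between them in the RefSeq table. Each sequence holds the 250 bases before the annotated start, read 5′ to 3′ on the strand of the gene, from RefSeq on GRCm38.p6. Capitals mark matches to any of 10 searched motifs.
Cgn (chr3:94786483-94786732, minus strand): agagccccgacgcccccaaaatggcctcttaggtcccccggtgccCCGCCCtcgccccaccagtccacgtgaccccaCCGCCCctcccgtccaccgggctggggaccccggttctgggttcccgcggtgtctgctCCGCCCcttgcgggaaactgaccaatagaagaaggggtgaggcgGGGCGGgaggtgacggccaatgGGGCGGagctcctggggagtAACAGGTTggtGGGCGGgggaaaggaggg
Cldn2 (chrX:139800558-139800807, plus strand): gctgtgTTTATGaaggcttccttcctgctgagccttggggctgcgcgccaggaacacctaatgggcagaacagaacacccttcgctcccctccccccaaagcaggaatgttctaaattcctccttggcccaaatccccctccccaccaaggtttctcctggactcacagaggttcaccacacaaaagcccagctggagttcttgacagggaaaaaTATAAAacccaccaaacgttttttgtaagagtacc
Cldn3 (chr5:134985964-134986213, plus strand): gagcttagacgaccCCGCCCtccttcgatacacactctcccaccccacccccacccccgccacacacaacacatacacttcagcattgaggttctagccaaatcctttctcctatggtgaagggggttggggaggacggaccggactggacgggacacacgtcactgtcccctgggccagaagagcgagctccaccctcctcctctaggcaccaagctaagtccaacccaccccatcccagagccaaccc
Cldn4 (chr5:134946935-134947184, minus strand): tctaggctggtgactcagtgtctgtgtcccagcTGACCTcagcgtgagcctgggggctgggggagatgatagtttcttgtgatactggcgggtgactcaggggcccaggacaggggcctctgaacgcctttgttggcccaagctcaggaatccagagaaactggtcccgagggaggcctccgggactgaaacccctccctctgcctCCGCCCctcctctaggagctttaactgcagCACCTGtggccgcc

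All 9 members had a promoter in the table, 11 promoters in all because Cldn7 and Ocln have more than 1 start, and both strands were searched. The SP and KLF box GGGCGG was found in promoters of 8 members, with 6 copies in that of Cgn, and in 32.7% of 32851 promoters of all genes. The first count is by gene and the percentage by promoter. The box holds only G and C, which made up 60% to 70.4% of the member promoters with it, against a median of 52.4% for all promoters. The part of base composition in this count was not tested. Cldn2, with 52% G and C, was the member without the box. Its promoter held instead the TATA box TATAAA, beginning 35 bases before the start, and the CDX motif TTTATG, which 12.4% and 10.8% of all promoters hold. The Snail and Zeb E-box CACCTG was found for Cldn4, Cldn7, F11r and Ocln (17.2% of all promoters), and the GRHL motif AACCNGTT for Cgn alone (1.79%). The nuclear receptor core AGGTCA occurred for Cldn4, Cldn7 and Ocln (14% of all promoters). No member matched a direct repeat of that core with 1 base between the copies, the element bound by PPARα with RXR, which only 0.0335% of all promoters hold. The repeat contains the core, so these searches overlap. No member matched the motif AGATAA of intestinal zinc finger factors such as Gata4, which 9.99% of all promoters hold. The same was found for GTTAAT, part of the HNF1 motif (6.43%), and for CAAAGTCCA, a form of the HNF4 motif (0.384%). These are matches of letters in a short window, and binding was not measured.

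At a threshold of 1.5-fold, 0 of 9 members were higher on EPA&DHA and 0 were lower, when each gene was represented by its brightest probeset. Of all 11687 genes, 6.19% passed that threshold upwards and 7.9% downwards, so that a count of 0 among 9 genes is near the background. Log2 ratios, always given as EPA&DHA over control, were below 0 in 8 of 9 members, against 56.5% of all genes, and their median was -0.19 against -0.05 for all genes. Counting signals at least 25% higher on one diet than on the other, 3 of 9 members were lower on EPA&DHA (Cgn, Cldn3 and Cldn2) and 0 higher, where 20.2% of all genes were lower and 15.1% higher. RNA pooled from many cells cannot tell fewer cells that express a gene from less of its RNA per cell.

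**Figure D1:**
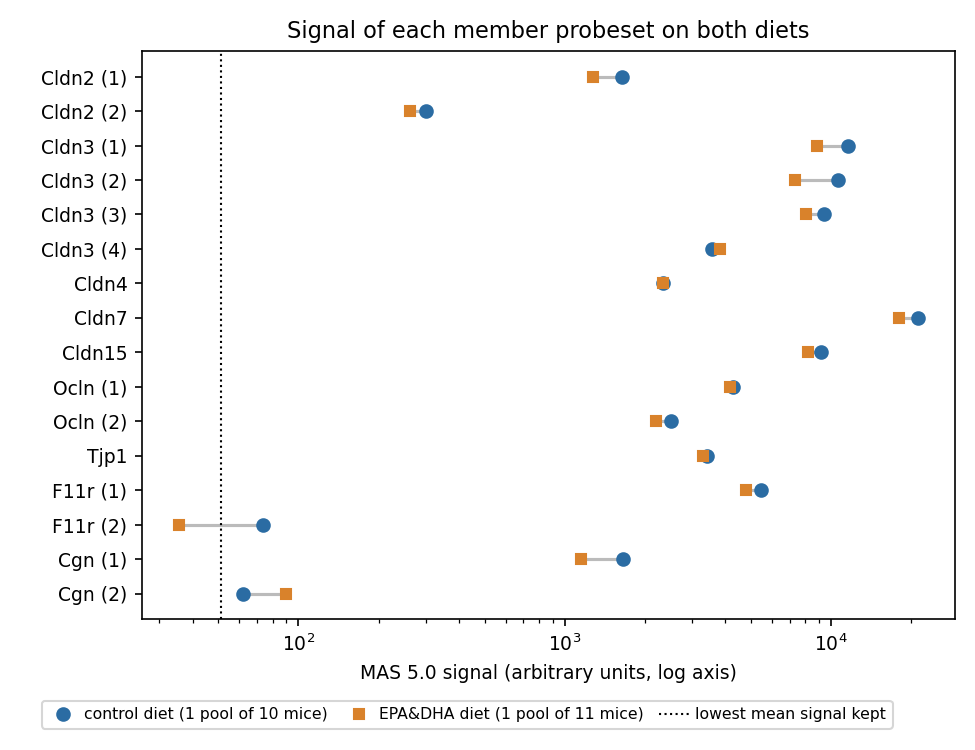
MAS 5.0 signal (x axis, arbitrary units, log scale) of each of the 16 member probesets on the control diet (blue circles) and the EPA&DHA diet (orange squares), 1 pooled array each, with probesets of a gene numbered from the brightest. The symbols of Cldn4, Ocln (1) and Tjp1 nearly coincide, those of Cgn (1) and Cldn3 (2) stand apart, and the second probesets of F11r and Cgn lie near the lowest mean signal kept (dotted line).

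The arrays themselves set how far a ratio can be read. Log2 signals of the kept probesets correlated with r = 0.976 across probesets, which are not independent replicates. Ratios scattered more at low signal, with a robust SD of 0.62 over the dimmest 6067 kept probesets and 0.24 over the brightest 6067. The scatter of the 500 probesets closest in signal to a given one, again as a robust SD and called the local SD here, describes how much ratios vary at that brightness, and it contains true differences between the pools as well as noise. It ran from 0.19 to 0.25 for the brightest probesets of the 9 members. Of these, 6 lay within 1 local SD of the median of their neighbours in signal, and all 9 within 2. Poly-A transcripts added before labelling had a median EPA&DHA signal 1.27 times that of the control array. Transcripts added at hybridization had log2 ratios from -0.23 to 0.10 over 18 probesets. The 3' to 5' signal ratio of Gapdh, a sign of RNA integrity, was 0.932 for the control pool and 0.793 for the EPA&DHA pool. For Actb this ratio was 1.22 for the control pool and 1.16 for the EPA&DHA pool. The part of these differences in the members' ratios was not tested.

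Of the cation channel claudins, Cldn2 was read by 2 probesets. The brighter gave 1646 for the control pool and 1274 for the EPA&DHA pool. That is 1.29-fold lower, or -0.37 as a log2 ratio, where the local SD was 0.25. The dimmer went from 301 to 262, a log2 ratio of -0.20, so both lay below 0. Cldn15, the main cation channel claudin of the small intestine after weaning, had 1 probeset with signals of 9160 and 8193, a log2 ratio of -0.16 with a local SD of 0.23. For this gene the diets differed by less than the local SD.

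Cldn3, a sealing claudin and receptor of a clostridial enterotoxin, was read by 4 probesets that did not give the same ratio. The brightest gave 11551 for control and 8863 for EPA&DHA, a log2 ratio of -0.38. The next went from 10618 to 7330, 1.45-fold lower, and only 2% of the 500 probesets nearest in signal had a lower ratio. Both of these may also bind related sequences, as the suffix of their names says. The others, which carry no such mark, had log2 ratios of -0.22 (9407 and 8080) and 0.09 (3589 and 3829). The 4 log2 ratios thus spanned 0.63, and the size of the difference in Cldn3 depended on the probeset read.

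Cldn4, the other enterotoxin receptor and neighbour of Cldn3, gave 2343 for control and 2344 for EPA&DHA on its only probeset, a log2 ratio of 0.00. It was the member with the ratio nearest to 1. Cldn7 is found along the lateral membrane as well as in the junction and binds EpCAM. It went from 21201 to 17944, 1.18-fold lower with a log2 ratio of -0.24 and a local SD of 0.19. Its deviation from the median of its neighbours in signal was -0.83 local SD. Each of the 5 claudins therefore had a log2 ratio between -0.38 and 0.00 on its brightest probeset.

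**Figure D2:**
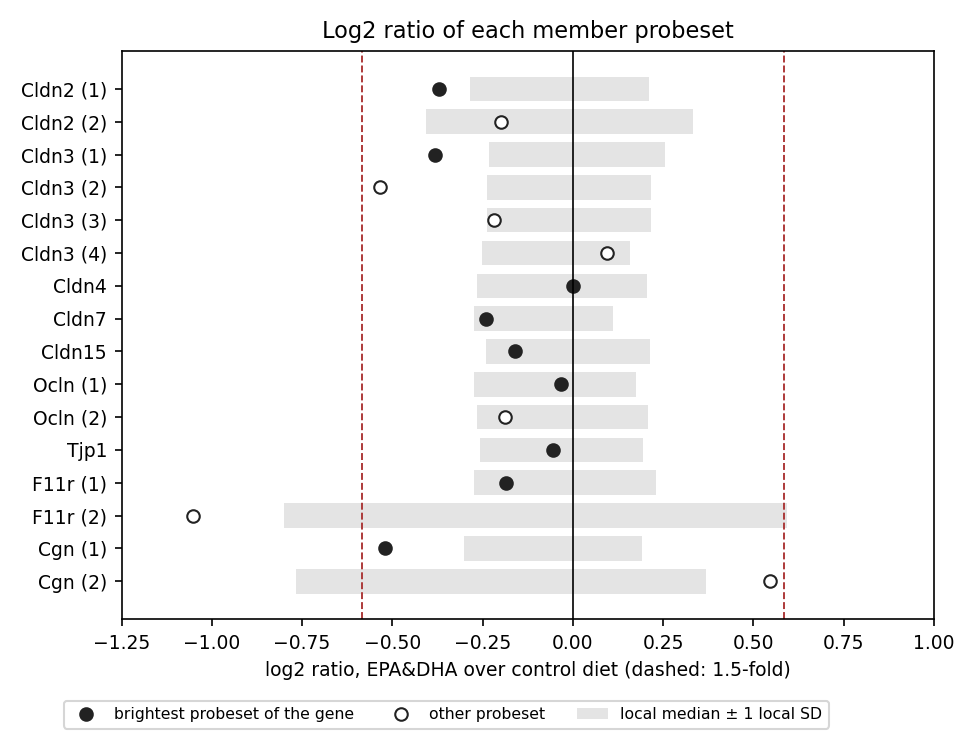
Log2 ratio of EPA&DHA over control (x axis) for each of the 16 member probesets, filled for the brightest of a gene and open for others, over grey bars that give the median ± 1 robust SD of the 500 probesets nearest in signal. Among brightest probesets, those of Cgn, Cldn3 and Cldn2 lie left of their bars, and 1 probeset, the dim F11r (2), lies beyond 1.5-fold (dashed lines).

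Occludin, a protein with 4 membrane spans that helps to organise the strands, had signals of 4277 and 4182 on its brighter probeset and 2510 and 2202 on the other. The log2 ratios were -0.03 and -0.19, both inside the local SD of their probesets. Tjp1 went from 3425 to 3299, so that its log2 ratio of -0.05 was well inside the local SD of 0.23. Occludin and the ZO-1 scaffold thus lay with Cldn4 near a ratio of 1.

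F11r encodes JAM-A, an immunoglobulin-like protein that helps to place cell polarity proteins at the junction. Its bright probeset had signals of 5448 and 4791, a log2 ratio of -0.19. A dim probeset, whose mean signal of 51.2 was barely over the lowest kept (51.1), went from 73.8 to 35.5, 2.08-fold lower with a local SD of 0.70. That was the only one of the 16 member probesets at least 1.5-fold lower, and 0 were at least 1.5-fold higher, where 8.85% and 8.06% of all kept probesets passed these thresholds. It may bind related sequences and its EPA&DHA signal lay under the level of the filter.

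Cgn had the lowest ratio of the members on its brightest probeset. This gene for cingulin gave 1650 for control and 1151 for EPA&DHA. The difference was 1.43-fold, or -0.52 in log2, with a local SD of 0.25. Among its neighbours in signal 3.2% had a lower ratio, and among all genes 10.0%. Its other probeset was dim, with signals of 61.6 and 89.9, and pointed the other way with a log2 ratio of 0.55 and a local SD of 0.57. The mean of both was 0.01. Over all 16 probesets, 13 had a log2 ratio below 0, against 54.4% of kept probesets. The ratios of both Cgn probesets were 1.06 apart in log2, where across the 5321 genes that kept several probesets the difference between the ratios of the top pair had an SD of 0.53.

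**Figure D3:**
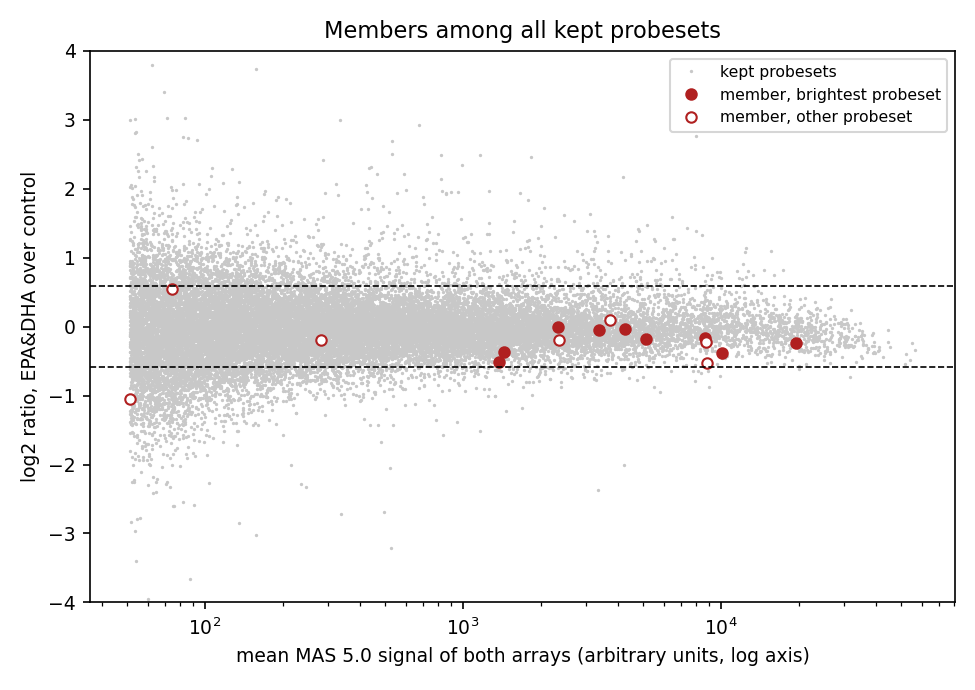
Log2 ratio of EPA&DHA over control (y axis) against mean signal (x axis, log scale) for all kept probesets (grey) and the 16 member probesets (red, filled for the brightest of a gene), with dashed lines at 1.5-fold. The 9 brightest member probesets lie in the right part of the plot, where ratios are narrowest, at log2 ratios from -0.52 to 0.00.

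The median of bright genes was also set beside that of the members. Of the 9, 7 were among the 2921 brightest genes, in which the median log2 ratio was -0.05 and 58.2% of genes were below 0. When ratios were corrected for their trend with signal (loess), the median of the members was -0.17 and that of all genes -0.01. The part of signal level in the members' median was not tested.

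Other genes of the tight junction were set beside the members from lists written out from general knowledge. Of 19 other claudins, 15 had a probeset of their own and 4 a signal over the filter. Cldn12 and Cldn23 had signals from 2521 to 2478 and from 2860 to 2671, with log2 ratios of -0.03 and -0.10. Cldn5, the claudin of blood vessel walls, was at least 1.5-fold lower, from 93.7 to 58.6 with a local SD of 0.58, and Cldn22 was dim as well. The other 11, among them Cldn1, Cldn8 and Cldn18, had mean signals under the filter and are given no ratio. The median of the 4 measured was -0.12.

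Of 16 further membrane proteins of tight junctions, 10 were measured, 0 were at least 1.5-fold higher and 1 was lower, with a median of -0.29 and 8 of 10 below 0. The lower one was Esam, an adhesion molecule of endothelium, from 140 to 83.1 (log2 ratio -0.76, local SD 0.51). Marveld2, which encodes tricellulin at the corners where cells meet, went from 906 to 632, a log2 ratio of -0.52 with a local SD of 0.25. It was close in size to that of Cgn and did not reach 1.5-fold. The highest was Clmp, a dim gene with log2 ratios of 0.20 and -0.86 on its 2 probesets. Lsr, which recruits tricellulin, had a log2 ratio of -0.30, and Epcam, the partner of claudin-7, one of -0.36 on its brightest probeset and 0.14 on another.

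Scaffold and polarity proteins were measured for 29 of 32 listed genes, of which 0 were at least 1.5-fold higher or lower. Their median was -0.13, and 22 of 29 had a log2 ratio below 0. Magi3, a scaffold with PDZ domains, was the lowest, from 4223 to 3017 with a log2 ratio of -0.49, while its dimmer probesets stood at -0.26 and -0.04. Tjp3, which encodes ZO-3, went from 1592 to 1176, a log2 ratio of -0.44 with a local SD of 0.24. The highest was Pard6a, a polarity protein, at 0.48 from a dim signal of 71.8. Sympk was close to it at 0.48, with signals of 248 and 345 and a local SD of 0.38. Its dimmer probeset stood at 0.97 with a local SD of 0.63. Cgnl1, the relative of cingulin, had a log2 ratio of -0.22 from a control signal of 75.3. Over all 43 measured genes of these 3 lists, 0 were at least 1.5-fold higher, 2 lower (Cldn5 and Esam) and 34 below 0, with a median of -0.13. Of all genes, 6.19% were at least 1.5-fold higher, 7.9% lower and 56.5% below 0, with a median of -0.05.

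**Figure D4:**
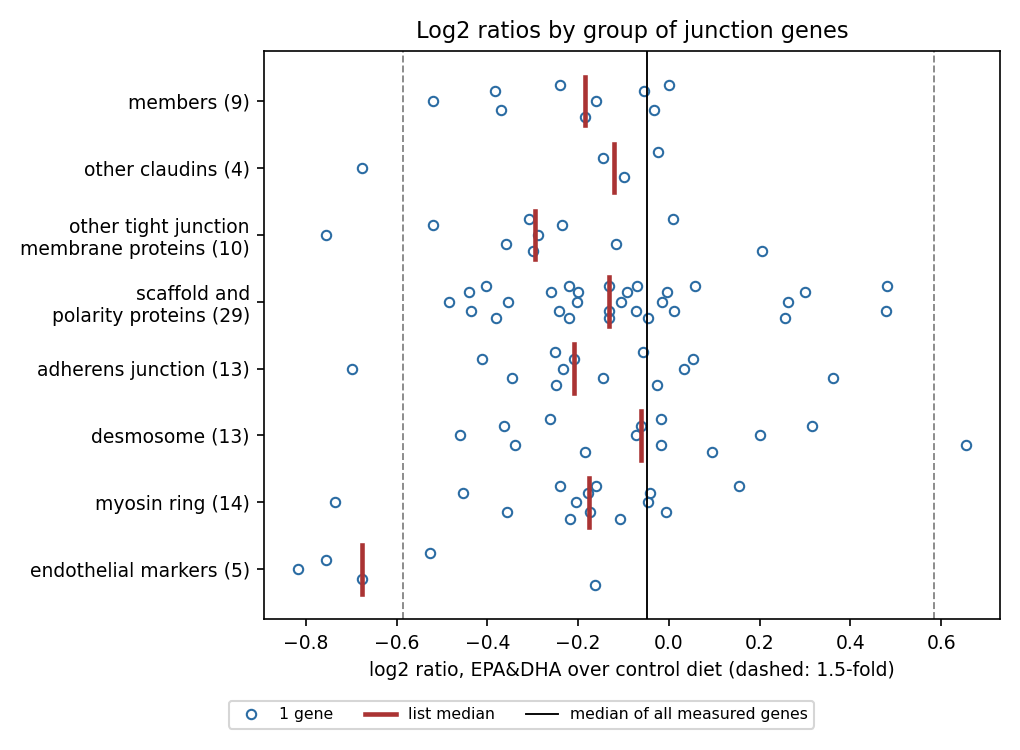
Log2 ratio of EPA&DHA over control (x axis) for each measured gene (circles) by list, with the number of genes in brackets, list medians in red, the median of all genes as a black line and 1.5-fold as dashed lines. Cldn5 and Esam, the points beyond 1.5-fold in the tight junction lists, are plotted again among the endothelial markers.

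Cldn5 and Esam are themselves among 8 endothelial markers, of which 5 were measured, with a summed signal of 556 for control and 372 for EPA&DHA. Without Cldn5 and Esam, 3 measured markers remained, with summed signals of 322 and 230.4. Of these, Egfl7 was at least 1.5-fold lower, with a log2 ratio of -0.82 and a local SD of 0.57. Cdh5, the cadherin of endothelium, had a log2 ratio of -0.53 with a local SD of 0.57, and Kdr, a receptor of vascular growth factor, one of -0.16 with a local SD of 0.51. Pecam1, Tek and Tie1 were under the filter. Markers of smooth muscle and fibroblasts were lower in the same direction, with a median of -0.41 over 7 genes and 1 of them at least 1.5-fold lower. The part of such cells in the ratios of Cldn5 and Esam was not tested. The members themselves were chosen as genes typical of intestinal epithelium, and their RNA in other cells was not measured apart. Their median of -0.19 stood beside medians of -0.16 for absorptive enterocytes, -0.29 for goblet cells, -0.19 for Paneth cells, -0.05 for enteroendocrine cells and -0.13 for crypt cells. In these lists, which hold 35 measured genes, 1 gene was at least 1.5-fold higher (Olfm4) and 1 lower (Axin2), both in crypts.

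Genes that mark the labelled tissue were read, and so were genes of exocrine pancreas. All 8 genes taken to mark intestinal epithelium were measured, with Vil1, the villin of microvilli, at 24490 and 23996. Of 6 genes that mark other organs, a list without exocrine pancreas, 0 were over the filter. The methods describe scraped epithelial cells, whereas the labels describe whole small intestine. Of exocrine pancreas genes, 6 of 6 measured passed 1.5-fold upwards on EPA&DHA, with summed signals of 3442 and 10874. The 7 genes that mark proximal intestine had a median of 0.07 with 0 apart by 1.5-fold, and the 7 of ileum one of 0.01 with 1 lower, the phosphate transporter Slc34a2. Of leukocyte lists, B and plasma cells had 3 of 5 genes at least 1.5-fold lower (Cd79a, Cd79b and Ms4a1). The bright Jchain of that list went the other way, from 11507 to 14860, and Mzb1 had a log2 ratio of -0.03. Mast cells had 2 of 2 genes lower, T cells 1 of 6, with 1 of 6 higher, and macrophages 0 of 6. The part of these cells in the members' ratios was not tested.

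Genes of the junctions below the tight junction are given by list. In the adherens junction 0 of 13 genes were at least 1.5-fold higher and 1 lower, with a median of -0.21. The lower one was Vezt (vezatin), with signals of 216 and 133 and with ratios of both signs on its kept probesets. Cdh1, the epithelial cadherin that holds the cells together, was the highest, from 10157 to 13059, a log2 ratio of 0.36 with a local SD of 0.23. In desmosomes, which anchor keratin filaments, 1 of 13 was at least 1.5-fold higher and 0 lower, with a median of -0.06. That was the plakin Evpl, from 229 to 361. The desmosomal cadherin Dsg2 was the lowest at -0.46 on a probeset that may bind related sequences, while its other probesets ranged from -0.26 to 0.51. Among genes of the myosin ring under the junction 0 of 14 were at least 1.5-fold higher and 1 lower, the light chain Myl6 (678 and 407), with a median of -0.18. The kinase Mylk, which opens tight junctions by acting on myosin, had a log2 ratio of -0.04, and the highest was the linker Ezr at 0.15.

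Transcription factors known to act on claudin genes were measured for 14 of 17 listed. Elf3, an epithelial ETS factor, was 1.65-fold lower, from 3784 to 2290 with a local SD of 0.24, the only one at least 1.5-fold apart. Cdx2 and Hnf4a, which maintain intestinal identity, had log2 ratios of -0.14 and -0.31, and Gata4 one of -0.32, on their brightest probesets. Each had kept probesets of both signs, from -0.14 to 0.11 for Cdx2, -0.45 to 0.54 for Hnf4a and -0.32 to 0.03 for Gata4. Vdr, the vitamin D receptor, which acts on Cldn2, was at 0.10. The dim gene Zeb1, a repressor of epithelial junction genes, was the highest at 0.58, from 66.3 to 99.4 with a local SD of 0.64. The median of the list was -0.15.

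Sodium that returns through claudin-2 and claudin-15 is used by transporters of the epithelium, and 9 genes for apical and basolateral transport of sodium and other solutes, among them a scaffold of NHE3, were measured. Slc9a3, the sodium and proton exchanger NHE3, was 1.83-fold lower, from 7465 to 4079, a log2 ratio of -0.87 with a local SD of 0.25. On brightest probesets it was the only one at least 1.5-fold lower, and 0 were higher. Slc5a1, the sodium and glucose carrier, had log2 ratios of -0.10 on its brightest probeset and 0.74 on the other. Slc26a3, a chloride and bicarbonate exchanger, was the highest on brightest probesets at 0.34. All 4 kept probesets of Slc26a3 lay above 0. Dimmer kept probesets reached 0.72 for Slc12a2, 0.96 for Cftr and 0.99 for Slc26a3, and -0.65 for Atp1b1. The median of the list was -0.10, near that of all genes.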

How the data were processed

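Small intestinal RNA pooled per diet was hybridized by the authors to Affymetrix MOE430_2 arrays, 1 per diet. The deposited values are linear probeset intensities (MAS 5.0 signals, as the methods name them), which the authors had scaled; their 2% trimmed mean was 500 on both arrays. With 1 array per diet, their number limits the precision, and no test was made. Values were put on the same trimmed mean, and as many probesets as the methods give as expressed (24270) were kept from the top of the mean log2 signals (53.8% of 45101, with 64 array controls set aside). Detection calls and change p-values were not used here. Probesets were named from the platform annotation and updated through gene identifiers to RefSeq (34945 named 1 gene, 932 several, 9160 none). A gene took its brightest kept probeset that names it alone. The main fold threshold was 1.5. The text names all probesets of the members and, from each junction, factor and transporter list, the genes past 1.5-fold and the highest and lowest. Other genes, such as Cldn23, Tjp3 and Mylk, were named after their values were seen. The members and all 25 lists were chosen with earlier results of these data known. Amino acid sequences of the claudins were not used here. The arithmetic was tested on simulated arrays. Scripts ran in Python 3.11.15 (matplotlib 3.10.9, statsmodels 0.14.6, pandas 2.3.3, numpy 2.4.6).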

Additional observations from a re-analysis of the deposited data

How the results depend on the processing

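The members' log2 ratios stayed within 1 local SD of their main values under other scalings, offsets, filters and probeset choices. The exception was the average of all kept probesets of a gene, where F11r stood at -0.62 and Cgn at 0.01. Some settings could not move these values. Both arrays already had the same trimmed mean, and no filter changed which probeset was the brightest of a member. Cldn4, Cldn7, Cldn15 and Tjp1 had only 1 probeset each. The median of the members stayed between -0.19 and -0.15, and 0 of 9 members passed 1.5-fold in all settings but the averaging (1, F11r). At a difference of 25%, 3 members and 6 of their probesets were apart. The count of member probesets apart was 2 after quantile normalization or loess, and 0 with an offset of 50, among the brighter kept probesets only, and without probesets marked as binding related genes.

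In 4 lists the small counts came from dim genes, while those of the myosin ring, transcription factors and transporters stayed at 1 with either offset and among the brighter kept probesets. With an offset of 50 the count apart by 1.5-fold was 0 among other claudins, tight junction membrane proteins, adherens junction and desmosome genes, and it was 0 in these 4 lists too among the brighter kept probesets. With an offset of the 25th percentile it was 0 and 2 in the first of these lists and the second, as after quantile normalization. Without a filter it was 7 of 15 other claudins (median -0.56), 4 of 16 membrane proteins, 1 of 30 scaffold genes and 2 of 16 transcription factors. It was also 2 for transcription factors after centring on the median, quantile normalization or loess, 1 for scaffold genes with averaged probesets and 2 for transporters without probesets marked as binding related genes. Clmp turned to -0.72 after quantile normalization and -0.63 with the offset of the 25th percentile, where its other probeset was the brightest, and Dsg2 to 0.25 without probesets marked as binding related genes and 0.04 with averaged ones. Magi3 was -0.26 when averaged. In all, 409 of 446 recomputed values stayed within the bounds used, among them values that a setting could not change. No paired analysis was possible because each diet has 1 array. Ratios of signals near 51.1, the edge of the filter, are uncertain, since the local SD at the dim F11r probeset was 0.70.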
